A study of Mus musculus with 39 samples.

Results

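Heat shock chaperones are proteins that hold, fold and refold other proteins, and many of their genes are switched on when proteins in the cell become damaged. The small heat shock proteins Hspb1 and Hspb8 bind unfolded proteins and keep them from clumping. The J protein Dnajb1 hands such proteins to the Hsp70 chaperones, of which Hspa1a and Hspa1b are the stress-inducible pair and Hspa8 is the form made at all times, and the Hsp110 protein Hsph1 lets Hsp70 release its bound nucleotide. Hsp90aa1, the more inducible form, and Hsp90ab1, the steady form, finish the folding of kinases and of steroid receptors, the glucocorticoid receptor among them. Hspe1 forms the lid of the mitochondrial folding chamber made by Hspd1. Most of these genes are targets of heat shock factor 1, which binds repeats of the unit nGAAn, called heat shock elements. In liver the family is known to follow body temperature and damage to proteins.

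Of the 10 listed genes, 9 had a probe, among 17016 genes measured, and 15 probes in all carried a RefSeq accession of a listed gene, among 25903 RefSeq probes. No probe carried an accession of Hspa1b. The members were chosen by gene family and by no measured threshold, but the family was picked with earlier results of these data known, and which values led to the choice was not recorded. The differences between groups in the members are therefore given as descriptions, with no p-value for any of them. Counts of members within a p limit stand beside the share of all probes, and nothing is read from them at any time. The list is named for the cytosol, whereas the product of Hspe1 works in mitochondria. Each gene is given by the probe with the brighter average liver signal, and further probes of Dnajb1, Hspa8 and Hsp90ab1 are given where they differ in sign or clearly in size.

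The livers came from 39 C57BL/6J mice (C57BL6/J in the labels), each hybridized on its own dual dye array. Aggressor-exposed (AggE) mice spent daily sessions in a box inside the home cage of an aggressor, without food, with random short exposures to it, and control (Ctrl) mice followed the same schedule, the loss of food included, with no aggressor present. Tissue was taken 24 hrs after a 5-day regimen (24 hrs post-5-day, 4 Ctrl and 5 AggE mice), 24 hrs after a 10-day regimen (24 hrs post-10-day, 4 and 5), 1.5 wks after the 5-day regimen (1.5 wks post-5-day, 4 and 5) and 4 wks after the 10-day regimen (4 wks post-10-day, 6 and 6). All mice met the cue of the aggressor in a partition test shortly before tissue was taken, so no group was without a recent challenge. The model is thus one inbred strain, and the Ctrl mice were themselves singly housed and without food during sessions. Whole liver was used, in which fewer cells of a type and less RNA per cell cannot be told apart.

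Each value below is a log2 ratio of the liver signal (Cy5) over that of a common reference RNA pooled from mouse cell lines (Cy3) on the same array, after normalization, so 0 means a liver signal equal to the reference and a step of 1 means 2-fold. A difference is the mean of AggE minus the mean of Ctrl mice, with the standard error (SE) of a limma fit over all 39 arrays. Ratios of different probes were not compared as levels. The share of RefSeq probes well above background in liver ranged from 20.0% to 79.5% over the arrays, and was lowest at 24 hrs post-5-day in AggE mice (21.1% to 36.9%, against 33.3% to 40.2% in Ctrl) and at 1.5 wks. No spot of a member was saturated (0). At both 24 hrs times the AggE and Ctrl arrays lay on separate slides, so there slide and exposure cannot be told apart. All 9 measured hepatocyte markers were well above background on every array. The SD of the liver signal over the 39 arrays was 0.85 for Hspb1 on the log2 scale and that of its reference signal was 0.16, so the spread of the ratio lay in the liver channel.

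The stretches of promoter that hold heat shock elements are shown because heat shock factor 1 is known to bind such repeats, and a match here is a description, not a measured site. A full element was searched as GAANNTTCNNGAA or TTCNNGAANNTTC and a short one as GAANNTTC or TTCNNGAA, which together cover both strands, in the 250 bases before each start site in RefSeq (GRCm38.p6). A short element lies inside every full one. Of 32851 promoter windows, 0.466% held a full and 12.8% a short element. Of the 10 genes, 7 had a window, all but Hspa8, Hsp90aa1 and Hsp90ab1. Hspe1 held 2 overlapping full elements, Hspb1 held 2 short ones, Hspa1a, Hspa1b and Hsph1 held 1 short one each, and neither spelling was in the windows of Hspb8 and Dnajb1. The stretches run 5′ to 3′ on the strand of the gene and end on the base before the start site, with the elements in capitals: Hspe1 at chr1:55088044-55088147 (plus strand), Hspb1 at chr5:135887787-135887918 (plus), Hspa1a at chr17:34972157-34972275 (minus), Hspa1b at chr17:34959239-34959357 (minus) and Hsph1 at chr5:149636316-149636384 (minus).
Hspe1 upstream stretch: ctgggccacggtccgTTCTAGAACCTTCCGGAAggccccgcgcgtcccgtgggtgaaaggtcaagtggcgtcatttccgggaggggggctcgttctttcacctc
Hspb1 upstream stretch: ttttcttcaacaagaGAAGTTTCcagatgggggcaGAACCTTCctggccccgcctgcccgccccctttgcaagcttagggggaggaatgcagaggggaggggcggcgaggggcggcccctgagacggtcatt
Hspa1a upstream stretch: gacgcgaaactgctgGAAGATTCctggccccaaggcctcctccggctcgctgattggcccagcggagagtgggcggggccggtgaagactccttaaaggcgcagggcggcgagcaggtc
Hspa1b upstream stretch: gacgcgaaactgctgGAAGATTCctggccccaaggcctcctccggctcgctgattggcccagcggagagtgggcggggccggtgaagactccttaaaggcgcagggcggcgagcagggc
Hsph1 upstream stretch: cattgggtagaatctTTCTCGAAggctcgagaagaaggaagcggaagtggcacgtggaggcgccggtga
Over the 250 bases before their start sites Hspa1a and Hspa1b were equal at 247 and differed at 3. The genes of this pair are known as near-copies, and whether the Hspa1a probes also detect Hspa1b was not tested.

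At 24 hrs post-5-day, 7 of the 9 measured chaperones had lower means in AggE than in Ctrl mice and 2 had higher ones, with a median difference of -0.35 (range -1.16 to 0.07), against a median of 0.0031 over all probes. No member (0) passed an adjusted p of 0.05 in limma, beside 3.69% of all probes, and 1 had an unadjusted p of 0.05 or less, beside 17.9%. Of the members 1 was past 2-fold with an unadjusted p of 0.05 or less, Hspb1, beside 0.228% of all probes, and the AggE and Ctrl ranges were apart in 0 members, beside 8.07% of all probes. Since the members were chosen with results known, nothing is read from these counts.

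Hspb1, the small heat shock protein also known as Hsp25, showed the widest gap. Its log2 ratios in the 4 Ctrl mice were 0.92, -0.00067, 1.71 and 0.41, and in the 5 AggE mice -0.57, -0.40, -0.46, -0.65 and 0.09. A single AggE mouse reached into the Ctrl range and 4 lay below every Ctrl mouse. The difference was -1.16 ± 0.42 (SE), or 2.23-fold lower in AggE mice. Hspa1a followed in size, with 1.13, 0.33, 1.68 and -0.01 in Ctrl and 0.49, 0.16, -0.20, -0.48 and 0.30 in AggE mice, and a difference of -0.73 ± 0.36 (SE). The groups overlapped, and Ctrl mice 1 and 3 carried the gap. Its main probe was well above background on 4 of 4 Ctrl and 3 of 5 AggE arrays, while its other 3 probes were above it on 0 of 5 AggE arrays, so no difference is given from them.

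The partners of Hsp70 were lower by less. Dnajb1 read -0.21, -0.73, -0.31 and -0.78 in Ctrl and -0.81, -0.64, -0.92, -1.44 and -0.83 in AggE mice, a difference of -0.42 ± 0.38 (SE). Its second probe gave -0.19 ± 0.16 (SE), but was well above background on only 1 of 5 AggE and 3 of 4 Ctrl arrays, so little rests on that value. Hsph1, the Hsp110 protein, read 0.47, 0.71, 1.19 and 0.54 in Ctrl and 0.21, 0.66, 0.34, -0.20 and 0.51 in AggE mice, also a difference of -0.42 (SE 0.32). Both overlapped between the groups. The arrays of AggE mice 3 and 4 had the smallest shares of probes above background in this group (23.2% and 21.1%). Without them, an exclusion chosen after seeing the data, the differences were -0.25 for Dnajb1 and -0.27 for Hsph1. Those of Hspa1a and Hspb1 were then -0.46 and -1.05. Hspa8, the steady Hsp70, differed by -0.25 ± 0.40 (SE), or by -0.03 ± 0.40 (SE) on its second probe, and Hsp90aa1 by -0.23 ± 0.27 (SE), each within its own error.

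Hspe1, the mitochondrial lid, differed by little but with a small spread. It read -0.81, -0.71, -0.58 and -0.60 in Ctrl and -1.17, -1.02, -0.79, -1.10 and -1.06 in AggE mice, a difference of -0.35 ± 0.18 (SE), and only AggE mouse 3, at -0.79, reached the Ctrl range. Hsp90ab1 (0.05 ± 0.31, SE) and Hspb8 (0.07 ± 0.20, SE) were the members with higher means in AggE mice, although the second probe of Hsp90ab1 gave -0.08 ± 0.32 (SE). For Hspb8 all 9 mice lay between 1.19 and 1.88. Muscle markers varied over the same arrays: the mean log2 ratio of the 11 muscle genes ran from -0.39 to 1.71 in Ctrl mice, highest in Ctrl mouse 3, and from -0.51 to 0.52 in AggE mice. On an array 1 to 8 of the 11 were well above background in Ctrl and 1 to 7 in AggE mice, so part of this spread lay near background. The part of muscle RNA in the values of Ctrl mouse 3 was not tested.

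**Figure D1:**
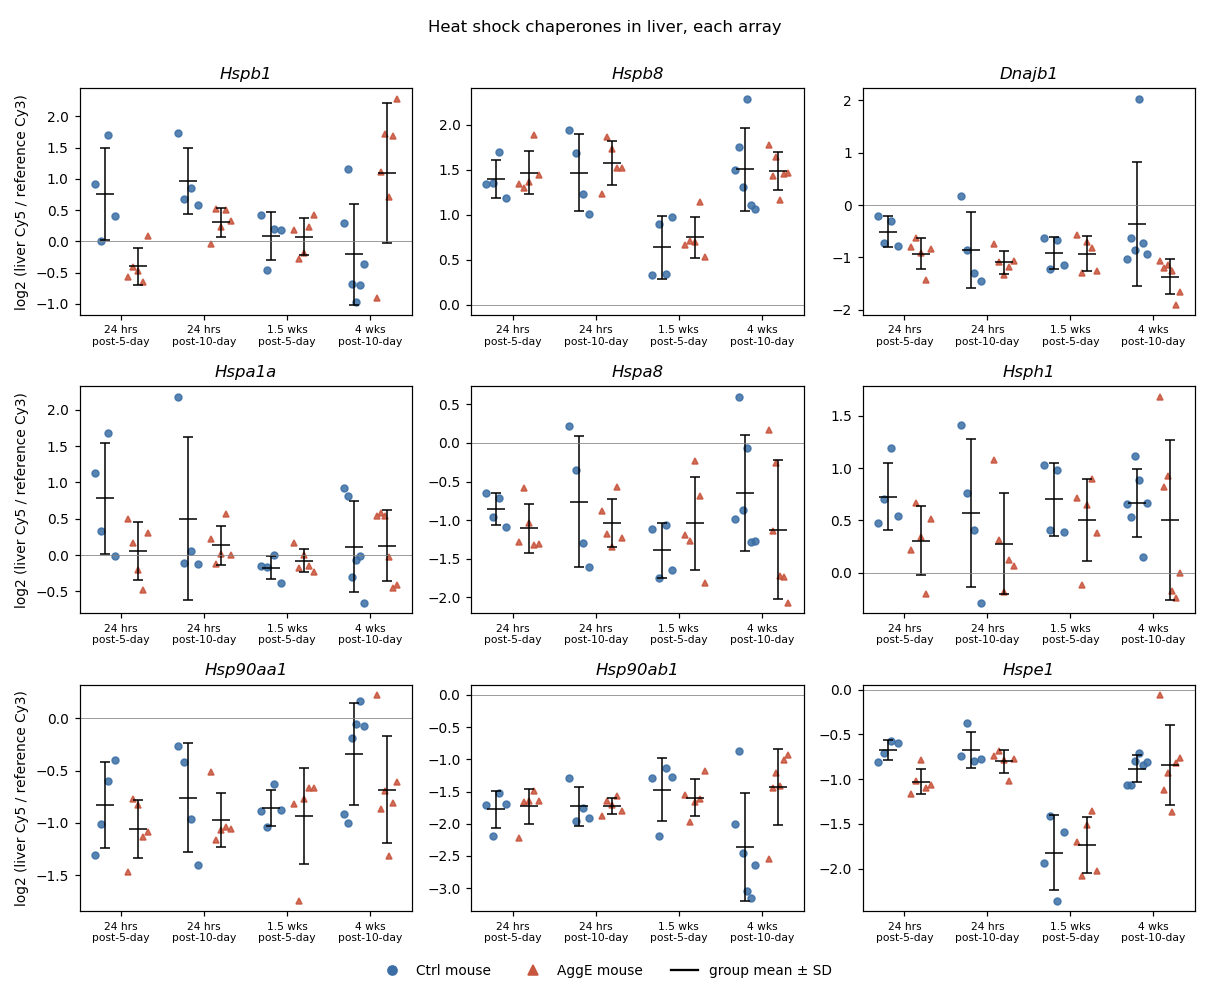
Log2 ratio of liver over reference signal for the 9 measured heat shock chaperones, one panel per gene with its own axis, by time and exposure (circles Ctrl, triangles AggE, 1 point per mouse, bars mean ± SD). Hspb1 of AggE mice lies low at 24 hrs post-5-day (difference -1.16) and high at 4 wks post-10-day (1.31), and Hspb8 and Hspe1 are low in both groups at 1.5 wks.

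At 24 hrs post-10-day the same 7 to 2 split in direction was found, with a smaller median difference of -0.23 (range -0.66 to 0.11), against -0.0041 over all probes. Again 0 members passed the adjusted p in limma, beside 0.0811% of all probes, 0 had an unadjusted p of 0.05 or less, beside 2.92%, and 0 were past 2-fold with such a p, beside 0.127%. The ranges of AggE and Ctrl mice were apart in 1 member, Hspb1, beside 1.73% of all probes. Hspb1 read 1.74, 0.68, 0.86 and 0.58 in Ctrl and -0.04, 0.53, 0.23, 0.51 and 0.32 in AggE mice, a difference of -0.66 ± 0.42 (SE). Every AggE mouse lay below every Ctrl mouse, though the nearest pair, 0.53 and 0.58, nearly met.

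A single Ctrl mouse set much of the rest. Ctrl mouse 1 was the highest of its group in 8 of the 9 genes and lay more than 1 SD above the mean of all 39 arrays in 7 of them. Its Hspa1a ratio was 2.18, the highest of all 39 arrays, while the other Ctrl mice read -0.11, 0.05 and -0.12 and the AggE mice -0.12 to 0.56. Without that array the median over the members was 0.05 in place of -0.23, and the differences of Hspa1a (-0.36), Dnajb1 (-0.23) and Hspa8 (-0.28) became 0.19, 0.11 and 0.05. Hspb1 was -0.40 without it and Hspe1 -0.15, beside -0.66 and -0.13 with it. With each array left out in turn, Hspe1 ranged from -0.17 to -0.03. The muscle markers of Ctrl mouse 1 were the lowest of its group, with a mean log2 ratio of 0.0088 against up to 1.57 in the other Ctrl mice. By group 10 of the 11 muscle genes had higher means in AggE mice (median difference 0.37, group means 1.06 against 0.58, 0 at an unadjusted p of 0.05 in limma), as did 6 of 6 Kupffer cell genes (median 0.39, 2 at such a p and 0 called). The part of these cells in the values of the chaperones was not tested. The second probe of Hspa8 differed by -0.81 ± 0.40 (SE), against -0.28 ± 0.40 (SE) by the first. The reference signal of this second probe varied as much as its liver signal (SD 0.81 and 0.79), and over the 39 arrays these probes correlated at r = 0.31. Hsp90ab1 differed by 0.0069 on its main probe and by -0.18 ± 0.32 (SE) on its second. Of the further Hspa1a probes 2 were above background on 1 of 4 Ctrl and 3 of 5 AggE arrays, and 1 on 0 of 9, so no difference is given from them.

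**Figure D2:**
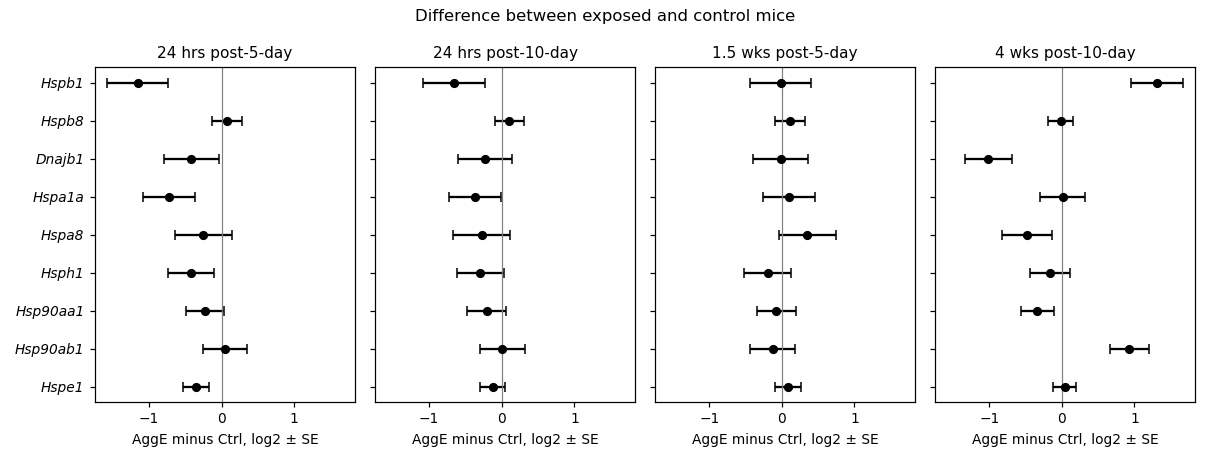
Mean of AggE minus mean of Ctrl mice on the log2 scale for each chaperone at the 4 times, with bars of 1 SE from the limma fit and a line at 0. Hspb1 lies at -1.16, -0.66, -0.01 and 1.31 in time order as drawn, and at 1.5 wks all 9 genes lie between -0.20 and 0.35.

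At 1.5 wks post-5-day the exposed and control mice differed little in any chaperone by their group means, though the values moved once the slide was fitted as a fixed block: Dnajb1 was -0.45 in place of -0.02 and Hspb1 -0.32 in place of -0.01. Within the slide that held 1 AggE and 3 Ctrl mice of this time, the AggE mouse differed by -0.43 in Dnajb1 and by 0.36 in Hspb1. The titles of all 5 AggE mice of this time and of 1 of the 4 Ctrl mice (mouse 4) carry the number 10, whereas their source names and descriptions give the 5-day regimen, which was followed here. The 9 differences ran from -0.20 to 0.35 with a median of -0.01, against -0.0041 over all probes. In limma 0 members had an adjusted p, and 0 an unadjusted p, of 0.05 or less, and 0 were past 2-fold, beside 0% of all probes at the adjusted p, 2.39% at the unadjusted p and 0.0309% past 2-fold. The ranges were apart in 0 members, beside 0.992% of all probes. Hspb1 read 0.43, -0.46, 0.21 and 0.18 in Ctrl and 0.19, -0.28, -0.18, 0.23 and 0.42 in AggE mice, so the groups covered nearly the same span. The largest difference, 0.35 ± 0.40 (SE) for Hspa8, was -0.45 ± 0.40 (SE) by its second probe. Hspa1a was well above background on 0 of 4 Ctrl and 1 of 5 AggE arrays, so no difference is given for it here, and its point in the plot of differences rests on spots near background.

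At 4 wks post-10-day the chaperones went separate ways. The median difference was -0.02, near the 0.011 of all probes, but the range was the widest of the 4 times, from -1.01 for Dnajb1 to 1.31 for Hspb1. Of the members 2 passed the adjusted p in limma, Hspb1 and Hsp90ab1, beside 3.2% of all probes, 3 had an unadjusted p of 0.05 or less (Dnajb1 with them), beside 20.2%, and 2 were past 2-fold with an unadjusted p of 0.05 or less, Hspb1 and Dnajb1, beside 0.201%. The ranges were apart in 1 member, Dnajb1, beside 1.55% of all probes. With the slide as a random or a fixed block 0 members passed the adjusted p. As at the other times, nothing is read from these counts. All 9 hepatocyte markers had lower means in AggE mice at this time, with a median of -0.30 and 0 called in limma (0 at an unadjusted p of 0.05 too). The biliary genes were lower in 5 of 5 (median -0.23, 1 called, Epcam, from a probe above background on 1 array of 12 and not lower with loess alone, and 2 at an unadjusted p of 0.05), and of the 6 Kupffer cell genes 4 were lower (median -0.35, 0 called, 2 at such a p). The part of these shifts in the values of the chaperones was not tested.

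Hspb1 was higher in AggE mice, the reverse of its direction at both 24 hrs times. Its log2 ratios in the 6 Ctrl mice ran from -0.97 through a median of -0.52 to 1.16, and in the 6 AggE mice from -0.90 through 1.40 to 2.28, a difference of 1.31 ± 0.36 (SE), or 2.48-fold. AggE mouse 1, at -0.90, fell among the Ctrl mice, and Ctrl mouse 2, at 1.16, among the AggE mice. AggE mouse 1 was also the only AggE mouse on a slide that held Ctrl mice, numbers 4 to 6, which read -0.97 to -0.36. Within that slide the AggE mouse differed from the mean of the Ctrl mice by -0.23. The other 5 AggE mice (0.72 to 2.28) differed from those 3 Ctrl mice by 2.18 and from Ctrl mice 1 to 3, on another slide, by 1.25. With the slide as a fixed block the difference was 0.46. The part of the slide in the difference was not tested.

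Hsp90ab1, the steady Hsp90, followed Hspb1 array by array at this time. It ran from -3.15 through a median of -2.54 to -0.88 in Ctrl and from -2.55 through -1.31 to -0.94 in AggE mice, a difference of 0.93 ± 0.27 (SE), or 1.90-fold, while its second probe differed by 0.33 ± 0.28 (SE). The lowest AggE mouse was again mouse 1 and the highest Ctrl mouse again mouse 2. Within the shared slide AggE mouse 1, at -2.55, stood above Ctrl mice 4 to 6 (-3.15 to -2.64). The other 5 AggE mice differed by 1.73 from these and by 0.57 from Ctrl mice 1 to 3. The inducible form Hsp90aa1 went the other way, from -1.001 through -0.13 to 0.17 in Ctrl and from -1.32 through -0.76 to 0.23 in AggE mice, a difference of -0.34 ± 0.23 (SE). Here Ctrl mice 3 to 6 were high, and the difference with the slide as a fixed block was 0.42.

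Dnajb1 was lower in AggE mice, -1.90 through -1.23 to -1.06 against -1.03 through -0.79 to 2.03 in Ctrl mice, a difference of -1.01 ± 0.32 (SE), or 2.02-fold. The groups did not overlap, but the nearest mice, at -1.06 and -1.03, almost touched. Much of the size came from Ctrl mouse 4, at 2.03, far above the other 5 Ctrl mice (-1.03 to -0.63). Without it the difference was -0.53, and by the second probe, on which the mouse read 0.33, it was -0.08 ± 0.14 (SE) with all mice and the groups overlapped. Hspb8 was highest in the same mouse, at 2.29. Muscle markers were high in Ctrl mice 4 and 5, with mean log2 ratios of 1.08 and 0.88. By group they ran from -0.43, in AggE mouse 1, to 1.15 in AggE mice (mean 0.50) and from -0.33 to 1.08 in Ctrl mice (mean 0.18), and 8 of the 11 muscle genes had higher means in AggE mice (median 0.20, 0 called in limma and 0 at an unadjusted p of 0.05). On an array 3 to 10 of the 11 muscle genes were well above background in each group. The part of muscle RNA in the values of the chaperones was not tested.

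**Figure D3:**
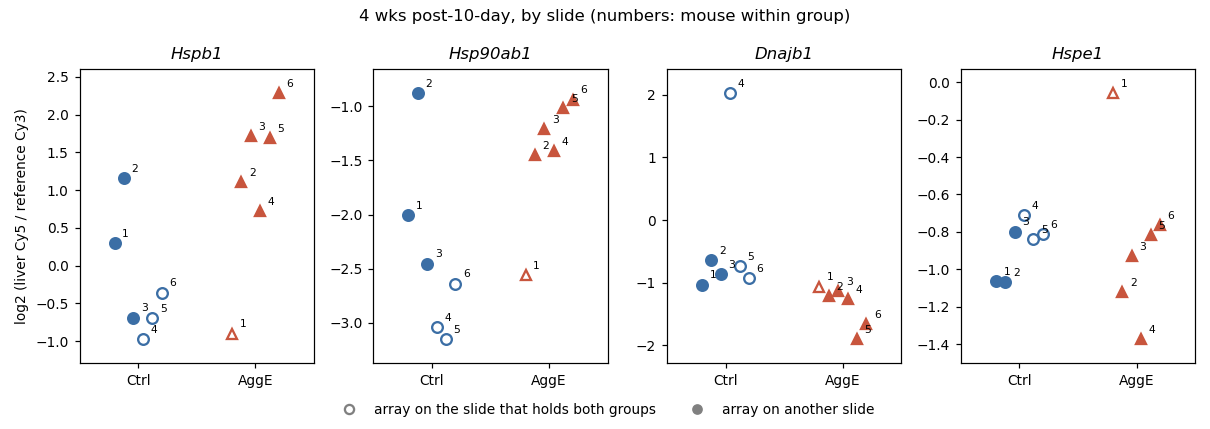
Log2 ratio of Hspb1, Hsp90ab1, Dnajb1 and Hspe1 in each mouse at 4 wks post-10-day (circles Ctrl, triangles AggE, numbers the mouse within its group). Open symbols are the arrays of the slide that holds Ctrl mice 4 to 6 and AggE mouse 1, where Hspb1 lies between -0.97 and -0.36 in all 4 mice.

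In the rest of the Hsp70 group and the Hsp110 protein the groups overlapped, and the sign of the difference depended on the slide. Hspa8 ran from -1.28 through -0.93 to 0.60 in Ctrl and from -2.07 through -1.43 to 0.17 in AggE mice (-0.48 ± 0.34, SE), while its second probe differed by -0.03 ± 0.34 (SE). Hsph1 ran from 0.15 through 0.66 to 1.11 in Ctrl and from -0.24 through 0.41 to 1.68 in AggE mice (-0.17 ± 0.27, SE). Hspa1a differed by 0.01 ± 0.31 (SE). With the slide as a fixed block the differences were 0.25 for Hspa8, 0.71 for Hsph1 and 0.33 for Hspa1a, and within the shared slide AggE mouse 1 stood above the mean of the Ctrl mice by 1.05, 1.11 and 0.78. AggE mouse 1 was the highest of all 39 mice in 3 genes, Hsph1, Hsp90aa1 and Hspe1 (-0.06), and at the same time the lowest AggE mouse at this time in Hspb1 and Hsp90ab1. Hspe1 (0.04) and Hspb8 (-0.02) had nearly equal means in both groups over all slides, whereas with the slide as a fixed block they differed by 0.70 and 0.27 and within the shared slide by 0.73 and 0.28.

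Differences between the exposure contrasts were then taken over the same fit. Of the members 0 passed the adjusted p in limma for 24 hrs post-5-day minus 24 hrs post-10-day, beside 0.027% of all probes, 0 for 24 hrs post-5-day minus 1.5 wks, beside 0.0734%, and 0 for 24 hrs post-10-day minus 4 wks, beside 0.054%. The numbers with an unadjusted p of 0.05 or less were 0, 0 and 2, beside 7.05%, 8.1% and 8.83% of all probes. The median over the members was -0.13, -0.40 and -0.12. The widest was Hspb1, at -1.97 for 24 hrs post-10-day minus 4 wks.

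Mice differed in the whole set as well as by group. With each gene put in SDs from its mean over the 39 arrays, the mean over the 9 genes was highest in Ctrl mouse 1 of 24 hrs post-10-day (1.67), followed by Ctrl mouse 3 of 24 hrs post-5-day (1.09) and by Ctrl mice 2 (0.82) and 4 (0.79) and AggE mouse 1 (0.78) of 4 wks. It was lowest in AggE mouse 2 of 1.5 wks (-1.11). Of the 5 highest mice 4 were Ctrl mice. The set did not move as one: of 36 pairs of genes with the group means removed, 8 had r above 0.5 and 11 below 0, with a median of 0.25 over 39 arrays that share slides and depth. The closest pairs were Hspb1 with Hsp90ab1 (r = 0.86), Hspa8 with Hsph1 (0.69), Hsp90aa1 with Hsph1 (0.63) and Hspa1a with Hspa8 (0.58). The most opposed pair was Hsp90ab1 with Hspe1 (-0.45).

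**Figure D4:**
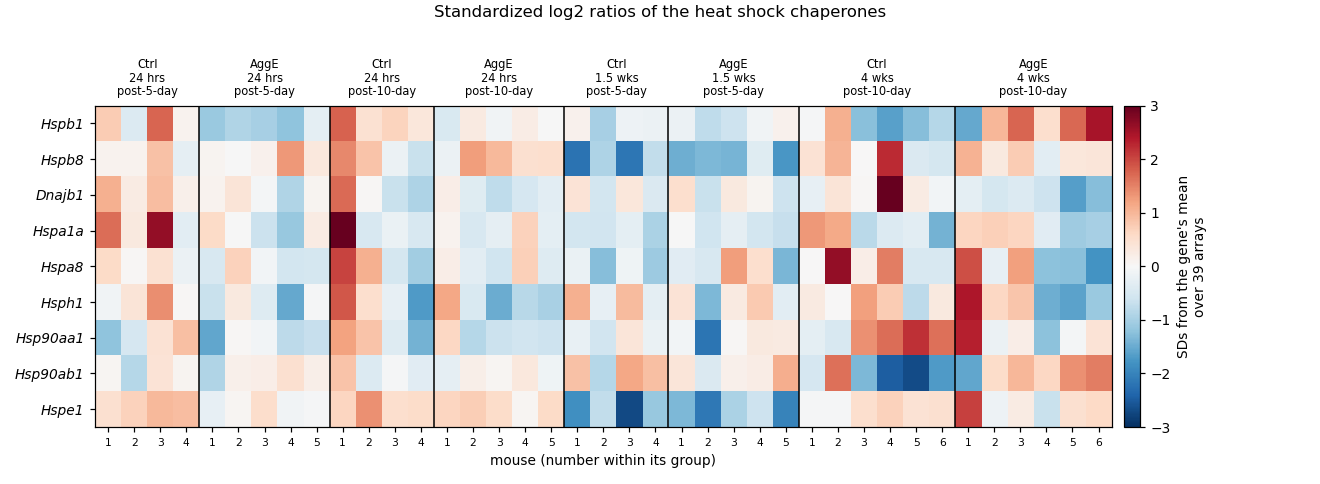
Each chaperone (rows) in each of the 39 mice (columns, numbered within their group), coloured by SDs from the mean of the gene over all arrays, red above and blue below, with the scale held at 3 SDs on either side. Ctrl mouse 1 at 24 hrs post-10-day is red in most rows (mean 1.67 SDs), and the rows of Hspb8 and Hspe1 are blue across both 1.5 wks groups.

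The order of the 8 groups showed few steps. All 24 hrs arrays were scanned on 1 day and all 4 wks arrays on another, and many slides held only 1 group. Slide, scan day and time can therefore not be fully told apart in this order. For Hspb1 the order of the means was AggE at 4 wks (1.102), Ctrl (0.96) at 24 hrs post-10-day, Ctrl at 24 hrs post-5-day (0.76), AggE at 24 hrs post-10-day (0.31), Ctrl (0.087) and AggE (0.073) at 1.5 wks, Ctrl at 4 wks (-0.21) and AggE at 24 hrs post-5-day (-0.40), and no neighbours in that order were further apart than their pooled SD. Over all 9 genes 4 of 63 neighbouring pairs were, and in 2 of these the ranges were apart as well. Both of those steps led down to the 1.5 wks mice, in Hspb8 and in Hspe1.

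Hspe1 and Hspb8 stood low in the livers of both groups at 1.5 wks. Hspe1 read -1.93, -1.41, -2.36 and -1.59 in Ctrl and -1.70, -2.08, -1.51, -1.35 and -2.02 in AggE mice, a mean of -1.77 over the 9 arrays against -0.83 over the other 30, whose lowest was -1.37. Hspb8 read 0.33, 0.89, 0.34 and 0.98 in Ctrl and 0.66, 0.70, 0.69, 1.14 and 0.53 in AggE mice, a mean of 0.70 against 1.49 over the other 30, whose lowest was 1.01. In each gene 8 of the 9 arrays lay below all 30 others, which held for 1.42% of all probes, and in the other 7 members 0 or 1 did. The comparison was made after these values were seen, and no test is given. Exposed and control mice of this time differed by 0.09 ± 0.18 (SE) in Hspe1 and by 0.11 ± 0.20 (SE) in Hspb8.

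The partner of Hspe1, the chaperonin Hspd1, whose gene lies head to head with it, was low in the same livers. Hspd1 had a mean of -1.95 over the 9 arrays of 1.5 wks against -0.91 over the others, also with 8 of 9 below all others, and over the 39 arrays it correlated with Hspe1 at r = 0.91, with library, slide and depth shared. Of the 11 mitochondrial chaperones and proteases, 3 met the same mark of 8 of 9: Hspd1, the mitochondrial Hsp70 Hspa9 (-1.79 against -0.93) and its exchange factor Grpel1 (-1.74 against -0.30, 9 of 9). The J protein of the matrix, Dnaja3, had 7 of 9. Clpx had 4 of 9 and differed by -1.11, from a probe above background on 6 of the 9 arrays. The mitochondrial Hsp90 Trap1 and the protease subunit Clpp were higher at 1.5 wks, by 0.36 and 0.82. These names were chosen after their values were seen. Outside mitochondria 1 of 11 J proteins (Dnaja2) and 1 of 14 Hsp90 co-chaperones (Chordc1) met the mark. Both were above background on only 5 of the 9 arrays of 1.5 wks. The co-chaperone Ptges3 and the TRiC subunit Cct2 had 7 of 9. None (0) of the 5 heat shock factors and regulators, of the 7 other Hsp70 and Hsp110 genes or of the 8 chaperonin TRiC subunits met the mark. Over all probes 1.42% did.

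Arrays of 1.5 wks shared a slide with arrays of other times in 3 cases, and the levels lay lower within each. Hspe1 read -1.70 to -1.35 in 3 AggE mice of 1.5 wks against -1.06 in the AggE mouse of 24 hrs post-5-day beside them, -1.59 in 1 Ctrl mouse against -1.07 to -0.80 in 3 Ctrl mice of 4 wks, and -2.08 in 1 AggE mouse against -0.76 in 1 AggE mouse of 4 wks. Hspb8 read 0.66 to 1.14 against 1.45, 0.98 against 1.31 to 1.76 and 0.70 against 1.47 on the same slides. Grpel1 read -1.71 to -1.48 against -0.59, -2.04 against -0.92 to -0.74 and -1.90 against -0.43. The share of probes above background was low on many arrays of this time, with medians of 29.2% in both groups, and was 50.6% on the array of Ctrl mouse 4 (Hspe1 at -1.59, Hspb8 at 0.98) and 57.2% on that of AggE mouse 2 (-2.08 and 0.70). The part of array brightness in these levels was not tested. With loess within arrays alone the differences kept their sign. The arrays below all others were then 4 of the 9 in Hspe1, 7 in Hspb8, 9 in Grpel1, 3 in Hspd1 and 3 in Hspa9. These were fewer than before except in Grpel1, which had 9 both times. In the same order the differences were -0.70, -0.94, -1.41, -0.64 and -0.47 in place of -0.94, -0.79, -1.44, -1.04 and -0.85.

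Markers of other liver cells had lower means for some cell types and higher means for others in the mice of 1.5 wks. Part of these genes lay near background there. Well above it on an array were 3 to 5 of the 5 endothelial genes in AggE and 2 to 5 in Ctrl mice. For Kupffer cells it was 3 to 6 and 3 to 5 of 6 genes, and for biliary genes 1 to 3 of 5 in each group. The mean log2 ratio of the 5 endothelial genes was 0.99 in AggE and 0.74 in Ctrl mice of this time (0.45 to 1.76 and 0.31 to 1.09), against 1.70 to 2.01 for the other 6 group means. That of the 6 Kupffer cell genes was 1.28 and 1.04 (0.79 to 1.98 and 0.55 to 1.69), against 1.76 to 2.27. The 5 genes of stellate cells and fibroblasts were higher than elsewhere, at -1.70 and -1.68 against -2.30 to -1.93, and the 5 biliary genes, at -1.66 and -1.64, lay at the upper end of the other groups (-2.08 to -1.65). The 8 leukocyte genes averaged -0.23 in AggE and -0.24 in Ctrl mice of 1.5 wks, against -0.15 to 0.03 elsewhere, with 1 to 4 above background on an array. The 4 genes of adipose tissue averaged 0.32 and 0.33, against 0.59 to 1.37, with 1 to 2 above background. The part of array brightness in these marker means was not tested. Nor was the part of cell makeup in the levels of Hspe1, Hspb8 and the mitochondrial chaperones.

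**Figure D5:**
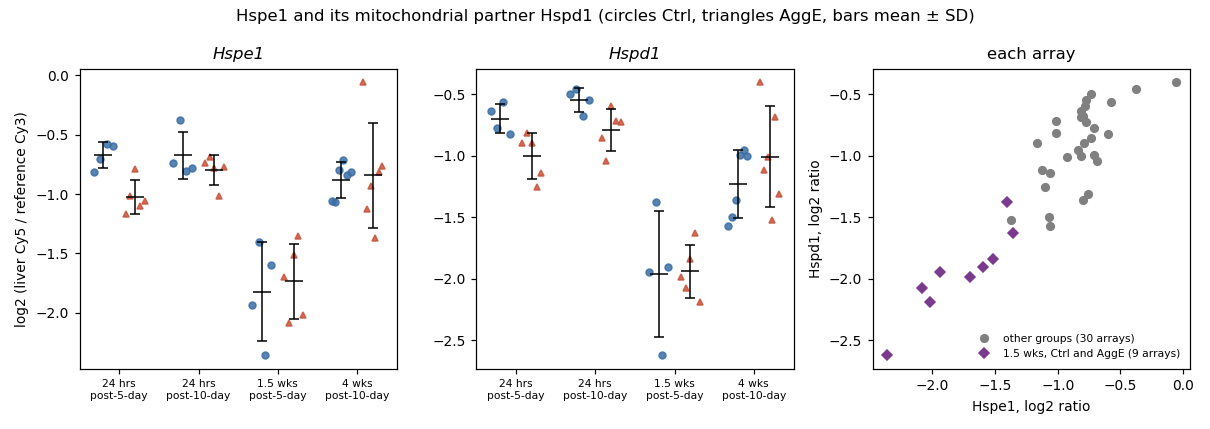
Log2 ratio of Hspe1 (left) and Hspd1 (middle) by time and exposure (circles Ctrl, triangles AggE, bars mean ± SD), and Hspd1 against Hspe1 in each of 39 mice (right, diamonds the 9 mice of 1.5 wks). The 1.5 wks mice average -1.77 in Hspe1 and -1.95 in Hspd1 against -0.83 and -0.91 in the other 30, and over all mice r is 0.91.

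Genes whose pattern was most like the mean of the standardized members were sought among 3189 other genes, those well above background on every array, over the 39 arrays, which share slides and depth. By the log2 ratio these were Pdhb, a subunit of pyruvate dehydrogenase (r = 0.73), Bag3, the co-chaperone that links Hsp70 to small heat shock proteins (0.70), Serp1, Mid1ip1 and Ostc (0.59 each), and the most opposed were Stat3 (-0.68), Zkscan17 (-0.67) and Cnppd1 (-0.63). With the group means removed Pdhb (0.83) and Bag3 (0.72) again led, followed by Noct (0.71), Mapk14 (0.68) and Mid1ip1 (0.63), with Ctdsp2 (-0.71), Fbxo21 (-0.70) and Atxn2 (-0.68) at the other end. For Hspb1 alone the closest genes were Ephx1 (0.78), Creld1 and Ube2m (0.77 each), Aldh2 (0.75) and Mrpl4 (0.74).

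Other genes of the heat shock network were counted from lists of general knowledge, of which 74 of 79 genes were measured. These lists, and those of the genes further below, were chosen with earlier results of these data known, so their p-values are given as descriptions. Of the 74, 65 had a probe well above background on all arrays of a group. At 24 hrs post-5-day 52 of the 74 were lower and 22 higher in AggE mice, with a median of -0.07, beside 49.1% of all probes lower. In limma 0 passed the adjusted p, beside 3.69% of all probes (6 had an unadjusted p of 0.05 or less, 5 of them lower, beside 17.9%). Nearest were the exchange factor Hspbp1 (-0.35, adjusted p = 0.068), Tsc1 (-0.24, adjusted p = 0.22, above background on 3 of 9 arrays) and Hspa2, above background on 0 of 9 and so with no difference given, and Bag3 differed by -0.50 (adjusted p = 0.25). At 24 hrs post-10-day 50 were lower and 24 higher, with a median of -0.04, beside 52.0% of all probes lower. At 1.5 wks 40 were lower and 34 higher, with a median of -0.02, beside 51.9% of all probes lower. In limma 0 passed the adjusted, and 0 the unadjusted, p of 0.05 at either time. The shares of all probes were 0.0811% and 2.92% at 24 hrs post-10-day and 0% and 2.39% at 1.5 wks. The factor itself, Hsf1, differed by -0.03 at 24 hrs post-5-day (adjusted p = 0.95) and by 0.05 at 24 hrs post-10-day (adjusted p = 1.0 in limma).

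At 4 wks post-10-day 3 of the 74 passed the adjusted p in limma, beside 3.2% of all probes, and 20 had an unadjusted p of 0.05 or less, beside 20.2%. Grpel1, the exchange factor of mitochondrial Hsp70, rose by 0.49 ± 0.095 (SE) in AggE mice (adjusted p = 0.00787). Its log2 ratios ran from -0.92 through a median of -0.75 to -0.55 in Ctrl and from -0.56 through -0.24 to 0.0060 in AggE mice, so that the groups met at one edge. With loess within arrays alone the difference was 0.36 (adjusted p = 0.0544). The nuclear J protein Dnajc9 fell by 0.35 (adjusted p = 0.0427) and the Hsp90 co-chaperone Sugt1 fell by 0.42 (adjusted p = 0.0494). With loess within arrays alone these differences were -0.07 and -0.58 (adjusted p = 0.83 and 0.00746). They were -0.36 and -0.05 with the slide as a fixed block (adjusted p = 0.141 and 0.913), and -0.36 and -0.26 with it as a random block. Under a random slide block their adjusted p was 0.152 and 0.35, and 1 of the 74 passed (Grpel1), beside 0.139% of all probes, with the slide as a fixed block 4 did (Cct4, Cdc37, Grpel1 and Unc45a), beside 4.14%, and without AggE mouse 1 the number was 11, beside 8.31%. Next in line were Dnajb6 (-0.45, adjusted p = 0.0523) and the TRiC subunit Cct5 (-0.41, adjusted p = 0.083). By list, 1 of 11 J proteins, 1 of 14 Hsp90 co-chaperones and 1 of 11 mitochondrial chaperones were called, and 0 of the 5 factors and regulators, 7 Hsp70 and Hsp110 genes, 8 Hsp70 co-chaperones, 7 small heat shock proteins and 8 TRiC subunits. The 41 higher and 33 lower genes had a median of 0.02, beside 46.0% of all probes lower.

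The metallothioneins Mt1 and Mt2, metal-binding proteins that glucocorticoids, metals and heat shock factor 1 are each known to raise, moved apart from the chaperones at both 24 hrs times. Mt1 rose by 3.80 ± 0.51 (SE) at 24 hrs post-5-day (limma adjusted p = 2.69e-05), from -4.41 to -3.79 in Ctrl to -1.67 to 1.13 in AggE mice, and by 3.15 at 24 hrs post-10-day (adjusted p = 0.00142). Mt2 rose by 4.35 (adjusted p = 0.00218) and 4.25 (adjusted p = 0.0111). No AggE mouse overlapped the Ctrl mice in either gene at these times. With the slide as a random block the differences were 3.68 and 2.86 for Mt1 (adjusted p = 0.0514 and 1.0) and 4.16 and 3.87 for Mt2 (adjusted p = 0.284 and 1.0), with loess alone the call of Mt2 at 24 hrs post-10-day was lost as well (adjusted p = 0.145), and with the block the share of all probes called fell to 0.0463% and 0.0232%. Hmox1, the heme-degrading enzyme of the same list, differed by 0.16 (adjusted p = 0.77) and 0.34 (adjusted p = 1.0). At 1.5 and 4 wks the differences of Mt1 were -0.05 and -0.34 and neither passed (adjusted p = 1.0 and 0.74). At 1.5 wks Mt1 lay between -2.87 and -1.06 in Ctrl and between -2.72 and -1.10 in AggE mice, above the Ctrl mice of 24 hrs post-5-day. At 4 wks Ctrl mice 1 and 4 read -2.37 and -2.23, the other Ctrl mice -4.70 to -3.98 and the AggE mice -4.65 to -3.59. Among ER chaperones Dnajc3 fell by 0.63 at 4 wks (adjusted p = 0.0415), the one call among 10 such genes in any of the 4 comparisons, beside 3.2% of all probes at this time. Ctrl mice 3 to 6 read 3.39 to 3.46, whereas Ctrl mice 1 and 2 (2.45 and 2.51) lay among the AggE mice (2.21 to 2.87). The difference was -0.61 under the random (adjusted p = 0.154) and -0.61 under the fixed slide block (adjusted p = 0.205). Of 12 immediate early genes, which respond within minutes to a stimulus, Jun fell by 0.57 at 4 wks (adjusted p = 0.024), and 10 of the 12 had lower means in AggE mice then, beside 46.0% of all probes. Ctrl mouse 4, at -0.17, lay far above the other Ctrl mice in Jun (-1.34 to -1.01). Without it the difference was -0.41 (adjusted p = 0.0588), and with loess within arrays alone -0.16 (adjusted p = 0.714). With the slide as a random block it was -0.54 (adjusted p = 0.126) and as a fixed block -0.50 (adjusted p = 0.171). Of 12 clock genes 1 was called, Npas2 at 24 hrs post-5-day, from a probe above background on 0 of 9 arrays, so no direction is given.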

How the data were processed

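Liver RNA of each mouse (Cy5) was hybridized with Universal Mouse Reference RNA (Cy3) on 1 of 39 arrays, with no dye swap. The authors deposited the intensity of each spot and of its background as read by Agilent Feature Extraction 11.5.1.1 (per the submitters' processing notes), along with processed intensities. A log10 ratio of Cy5 over Cy3, computed by the authors from the processed intensities, was also deposited and served as an alternative. Groups followed the source name of the liver channel. The titles of all 5 AggE and 1 of 4 Ctrl mice of 1.5 wks carry a 10, and the descriptions of all 5 AggE mice of 24 hrs post-5-day also name a 1-day regimen.

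Median spot intensities were corrected with normexp (offset 50), normalized by loess within arrays and by quantiles between arrays, and spots of a probe were averaged, with controls and outlier spots (0.295% to 1.46% per array) left out. Of 41174 non-control probes, 25903 with a RefSeq accession were tested, and 24375 of these had a symbol (17016 genes) through a RefSeq table of GRCm38.p6, used for names. A limma 3.58.1 fit in R 4.3.3 (with data.table, version 1.17.8, and statmod 1.5.0) estimated the 8 group means together, with Benjamini-Hochberg adjustment over all 25903 probes. Fits were tested on simulated data. A gene was represented by its probe with the highest mean Cy5 signal. Named were all members, and of each list every gene called, with up to 3 others of the smallest p. Likeness names the 5 highest and 3 lowest correlations. Members and lists were chosen with earlier results of these data known. Each array is a mouse. The number of arrays limits the precision, and arrays lay on 11 slides. Alternatives covered background correction, normalization, probe sets, weights, slides, scan days and left-out arrays.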

Additional observations from a re-analysis of the deposited data

Results flagged for a closer look

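In 10 of 72 combinations of a chaperone and a group, a single mouse stood apart by Dixon's test, whose gap to its nearest neighbour is set against the whole range of the group. Chance flags about 5% of groups. The widest gaps were in control mice. Hspa1a in Ctrl mouse 1 at 24 hrs post-10-day had a log2 ratio of 2.18, with the next at 0.05, and Dnajb1 in Ctrl mouse 4 at 4 wks had 2.03, with the next at -0.63.

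Both steady and inducible Hsp90 genes had such mice. Hsp90aa1 read -0.52 in AggE mouse 1 at 24 hrs post-10-day (next -1.04) and -1.75 in AggE mouse 2 at 1.5 wks (next -0.82). Hsp90ab1 read -2.21 in AggE mouse 1 at 24 hrs post-5-day (next -1.66), -2.19 in Ctrl mouse 2 at 1.5 wks (next -1.28) and -2.55 in AggE mouse 1 at 4 wks (next -1.45).

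Hspb8 was high in AggE mouse 4 at 24 hrs post-5-day, at 1.88 (next 1.45), and in AggE mouse 4 at 1.5 wks, at 1.14 (next 0.70). Hspe1 was high in Ctrl mouse 2 at 24 hrs post-10-day, at -0.38 (next -0.74).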

How the results depend on the processing

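The counts at 4 wks post-10-day moved most. The 2 members called there became 1 without background correction, over all non-control probes and with the mean over all probes of a gene. They became 3 with loess alone or Aquantile (Dnajb1, Hspa8, Hspb1), and with array weights or only probes above background (Dnajb1, Hsp90ab1, Hspb1). They became 0 with normexp offsets of 0 or 16, Feature Extraction's processed signals, the Cy5 channel alone, the series table, only the groups of the contrast, a random or fixed block for the slide, the replicate block, or, chosen after seeing the data, without the arrays of the slide with both groups or without the high Ctrl arrays. The median of the members, -0.02 there, was -0.33 with loess alone or with Aquantile and 0.42 with the slide as a fixed block. The 3 network genes called there became 9 with loess alone or Aquantile (without Grpel1 and Dnajc9), 9 with array weights, 1 without background correction, with offset 16, the series table, all probes, the mean over probes, the random slide block, the replicate block and both exclusions, and 0 with offset 0, processed signals, Cy5 alone or only the groups of the contrast. At 24 hrs post-5-day array weights called 1 member (Hspb1), and the network count of 0 became 1 without background correction, with processed signals, with only the groups of the contrast or with array weights, and 2 with Cy5 alone. Array weights also called 1 member (Hspb1) for 24 hrs post-10-day minus 4 wks.

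Leaving out 1 array at a time, the members called at 4 wks ranged from 0 to 3 and the network genes from 1 to 11, both highest without AggE mouse 1 (members Dnajb1, Hsp90ab1, Hspb1), and the members for 24 hrs post-10-day minus 4 wks ranged from 0 to 1. The medians ranged from -0.41 to -0.27, -0.43 to 0.05, -0.12 to 0.12 and -0.14 to 0.04 in the order of the report. The difference of Hspb1 kept its sign in 26 of 26 alternatives at each 24 hrs time (-1.49 to -0.84 and -1.01 to -0.40) and in 31 of 31 at 4 wks (0.46 to 1.71), as did those of Dnajb1 (-1.25 to -0.53) and Hsp90ab1 (0.57 to 1.22) at 4 wks. Replicate numbers did not pair the mice (r of their deviations from -0.42 to 0.50), so the replicate block, whose calls at 4 wks were 0 members and 1 network gene, is only an alternative. A fixed slide block could not be fitted at 24 hrs. The comparison of protein sequences was not run. Of the list genes called at a time, fitted with the slide as a random block after seeing the data, only Grpel1 at 4 wks remained called (adjusted p = 0.0495), and with loess alone Epcam at 4 wks was 0.011 in place of -0.66. Why these counts moved was not tested.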

Other observations

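Of 61 measured marker genes of the liver and of other tissues, 4 were called at 24 hrs post-5-day, beside 3.69% of all probes, and 1 at 4 wks, beside 3.2%, by limma with adjustment over all probes. At 24 hrs post-5-day Spp1, which bile duct cells and some macrophages make, rose by 1.28 in AggE mice (adjusted p = 0.00261) and Fabp4, a fatty acid carrier of fat cells and capillaries, rose by 1.26 (adjusted p = 0.0465). With the slide as a random block, chosen for these genes after seeing the data, the differences were 1.02 and 1.20 (adjusted p = 0.351 and 0.59). With loess alone they were 1.57 and 0.63 (adjusted p = 0.0905 and 0.731). Krt7 and Cela2a were also called there but were above background on 0 of 9 arrays, and Epcam, called at 4 wks, was above background on 1 array. The rise of Mt1 was larger at 24 hrs post-5-day than at 1.5 wks, by 3.85 (adjusted p = 0.017), and larger at 24 hrs post-10-day than at 4 wks, by 3.48 (adjusted p = 0.0252). Both calls were lost with the slide as a random block (adjusted p = 0.487 and 1.0) and with loess alone (0.0832 and 0.0742). The values were then 3.83 and 3.55 with the block and 4.29 and 3.82 with loess alone.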
